A study of Lemna gibba with 6 samples.

Results

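The genes described here encode enzymes that make amino acids, move amino groups between them, or transfer the amide nitrogen of glutamine (Gln) into other compounds. They were taken from the study's list of genes assigned to the reactions of its metabolic network. A gene was chosen when its enzyme name contained transaminase, aminotransferase or glutamate dehydrogenase, or when its reaction was the conversion of Gln to glutamate or the synthesis of alanine, aromatic, branched-chain or lysine-family amino acids. Asparagine synthetase, glutamine synthetase, glutamate synthase and alanine-glyoxylate transaminase genes were left out by name. This gave 48 genes, of which 43 have a row among the 16340 genes of the authors' table. The 5 genes without a row are the aspartate transaminase LEMGIv51_A5_017402_1, the amidophosphoribosyltransferases LEMGIv51_A5_004211_1, LEMGIv51_A5_006619_1 and LEMGIv51_A5_010948_1, and the 2-isopropylmalate synthase LEMGIv51_A5_021949_1.

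The samples are 6 libraries of polyA RNA from fronds of *Lemna gibba* G3, clone 7742a, a small floating duckweed. In the ONS condition the fronds grew on Gln (6.85 mM) as organic nitrogen source (3 libraries), and in the INS condition on an inorganic source of 12.4 mM nitrate and 1.3 mM ammonium (3 libraries). Both media held 5 g/L glucose, and both cultures were axenic, at 24 °C under continuous light of 100 µmol per m2 and s. Whole fronds with their roots were harvested, so that in this bulk RNA fewer cells of a type and less RNA per cell cannot be told apart. Genes of RuBisCO, which marks green tissue, were present under both conditions, and the 15 genes added up to 2.12% of the summed mean counts under ONS and 1.63% under INS. No root markers were at hand, so whether the share of root RNA differed between the conditions was not tested.

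Plants bring nitrogen into organic form mainly as the amide group of Gln, which glutamate synthase passes on to 2-oxoglutarate to form glutamate. Transaminases then hand the amino group of glutamate to keto acids, which gives aspartate, alanine and most other amino acids, while glutamate dehydrogenase can release it as ammonium. A smaller set of enzymes, the amidotransferases, takes the amide group of Gln directly, for the purine and pyrimidine rings of nucleotides, for tryptophan and for vitamin B6. Fronds on Gln receive both the amide and the amino group ready-made, whereas fronds on nitrate and ammonium have to assimilate inorganic nitrogen first.

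The authors' table gives each gene a mean normalized count per condition, which is a mean of read counts divided by library size factors and is not divided by transcript length, so that levels are compared here between conditions and not between genes. Means under 1000 were separated into the whole reads of the 3 libraries where 1 solution exists. This worked for 10 members. For 5 further members, several solutions existed and the one with agreeing libraries was kept, a choice made after seeing the data that makes their spread too small. For 5 members reads could be had in 1 condition only, and for 23 members only the condition means are given, without error or test. The libraries are called A, B and C from the deepest to the shallowest in each condition, with estimated depths of 8324792 to 35807286 reads. Their replicate numbers are not known. Across 9979 genes with single solutions, Spearman's rho between libraries was 0.907 to 0.966 within a condition and 0.786 to 0.923 between conditions, and library INS A gave the lowest values with the ONS libraries (0.786 to 0.883).

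The members were mostly at a slightly higher mean under ONS than under INS, and few differed by more than 2-fold. Of the 43 members, 32 had a higher mean under ONS and 11 a lower one, with a median log2 ratio (ONS over INS) of 0.30. Among all 15249 genes with a mean of at least 10, 53.6% had a ratio above 1 and the median log2 ratio was 0.04. Of the 42 members with a mean of at least 10, 31 had a ratio above 1 (median 0.30), and 37 lay within 2-fold of the INS mean, as did 89.4% of all genes. Among members with a mean of at least 50, the log2 ratio was highest for an LL-diaminopimelate aminotransferase (1.08), the large chain of carbamoyl-phosphate synthase (1.04), and phosphoribosylformylglycinamidine synthase and an unnamed gene of isoleucine synthesis (1.00 each). The lowest were those of an amidophosphoribosyltransferase (−1.14), an aminotransferase annotated as ALD1 (−0.94) and a branched-chain transaminase (−0.92).

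**Figure D1:**
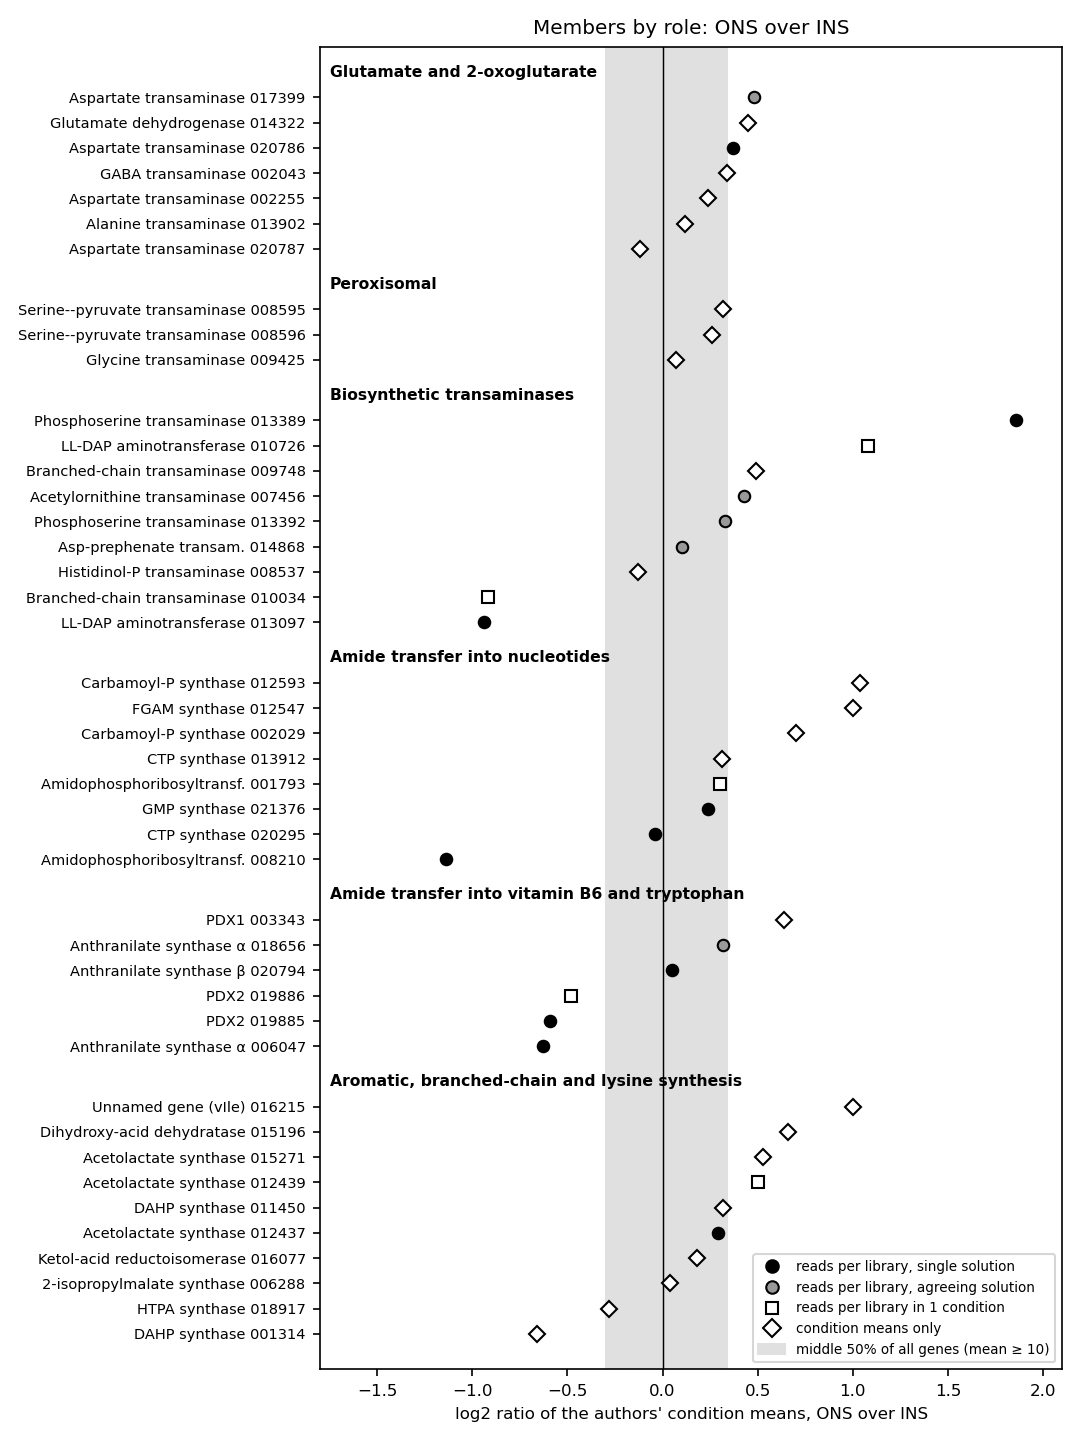
The log2 ratio of the authors' condition means (ONS over INS) is plotted for each of the 43 members, grouped by role and labelled by enzyme and the number in the gene ID, with symbols for the kind of data behind it and a grey band from −0.30 to 0.34 for the middle 50% of all genes with a mean of at least 10. In all, 32 members lie right of 0, and the spread is widest among biosynthetic transaminases and nucleotide amidotransferases.

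None of the members that could be tested differed between the conditions at the adjusted threshold, and most of those with the highest ratios had no reads per library to test. Of the 9 members with single solutions and a mean of at least 10, 0 reached an adjusted p of at most 0.05 (limma, Benjamini-Hochberg over 9979 genes), where 6.45% of all genes tested did, 0.942% being higher under ONS and 5.51% lower. With the study's further limit of more than 4-fold, which can only lower such counts, 0 of 9 members and 2.85% of all genes were called. An unadjusted p under 0.05 was reached by 3 of the 9 members, all lower under ONS (the ALD1-annotated gene, an amidophosphoribosyltransferase and an anthranilate synthase alpha subunit), against 12.3% of all genes in that direction, and by 0 members higher under ONS, against 6.64%. With the agreeing solutions added, 0 of 14 members and 5.66% of 11033 genes reached the adjusted p, and 4 of the 14 had an unadjusted p under 0.05, against 18.0% of these genes. The smallest adjusted p of a member was 0.167. Standard errors of the 9 members were 0.21 to 0.54 on the log2 scale, so that a failed test does not show equal levels.

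Members with many reads lay further to the ONS side than other genes of that abundance. Of the 26 members with a mean of at least 1000, 21 had a ratio above 1, against 50.6% of the 3627 genes in the table with such a mean, and the median log2 ratio was 0.32, against 0.00. A mean at least 1.5-fold higher under ONS was found for 7 of these 26 members and for 6.34% of the 3627 genes, and one at least 1.5-fold lower for 2 members and 11.3% of these genes. More than 2-fold higher were 4 members, against 1.16% of these genes, but phosphoribosylformylglycinamidine synthase and the unnamed gene are just past that limit. Among the 16 members with a mean of 10 to 1000, 10 had a ratio above 1, against 54.6% of all genes of that range, and the median was 0.17, against 0.06. In this range 0 of the 16 members were at least 1.5-fold higher under ONS, against 13.2% of the genes, and 4 were at least 1.5-fold lower, against 15.1%. These are ratios of means over 3 libraries each, with no error, and the shares were not tested.

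**Figure D2:**
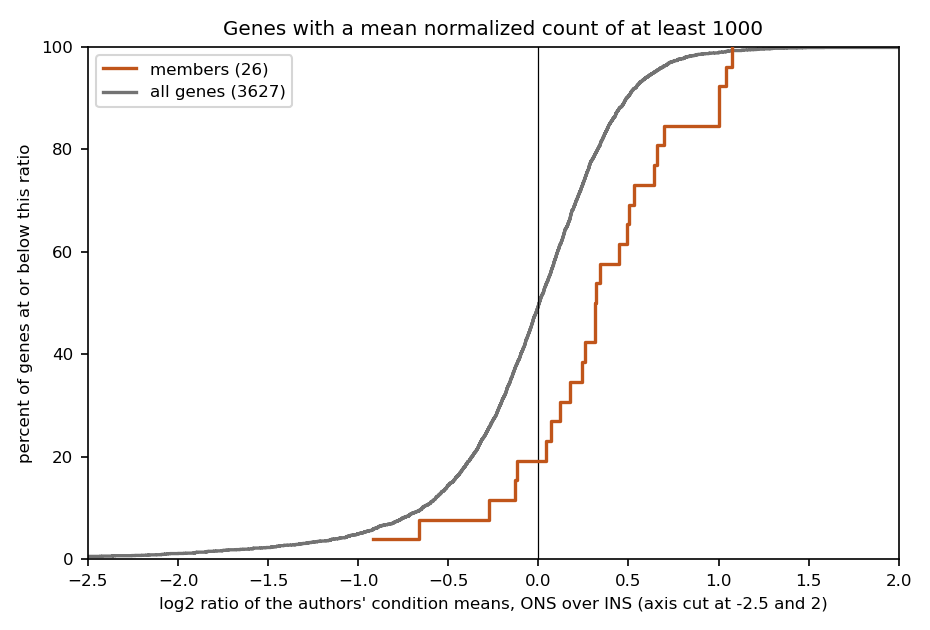
The cumulative percent of genes (y axis) at or below a log2 ratio of the authors' condition means, ONS over INS (x axis), is shown for the 26 members and for all 3627 genes whose mean normalized count was 1000 or more. The members' curve runs right of that of all genes up to a log2 ratio of about 1, with medians of 0.32 and 0.00.

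The enzymes grouped by their names as exchanging amino groups between glutamate and central metabolism were, with 1 exception, at a slightly higher mean under ONS. Of 7 genes, 6 had a ratio above 1, against 53.6% of all genes with a mean of at least 10. The median log2 ratio was 0.34, and each of the 7 lay within 1.5-fold. Glutamate dehydrogenase (LEMGIv51_A5_014322_1), which interconverts glutamate with 2-oxoglutarate and ammonium, had a mean of 1925 under ONS and 1411 under INS (log2 ratio 0.45). The 4-aminobutyrate transaminase LEMGIv51_A5_002043_1, which degrades the non-protein amino acid GABA, had a mean of 1508 under ONS and 1189 under INS (log2 ratio 0.34). Alanine transaminase (LEMGIv51_A5_013902_1), which links pyruvate and alanine, had a mean of 2494 under ONS and 2294 under INS (log2 ratio 0.12).

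Aspartate transaminase, which forms aspartate from oxaloacetate, had 4 genes in the table, annotated as chloroplast and mitochondrial forms. Reads per library for LEMGIv51_A5_020786_1, a chloroplast form, gave 218, 245 and 338 normalized reads in ONS A, B and C, against 140, 223 and 258 in INS A, B and C. The groups overlap, with the lowest value in INS A, and limma gave a log2 fold change of 0.39 with an adjusted p of 0.511 (standard error 0.29, 95% confidence interval −0.26 to 1.04). It was 0.13 without INS A and 0.20 without ONS C. The mitochondrial form LEMGIv51_A5_017399_1 had 978, 703 and 1261 normalized reads in ONS A, B and C, from an agreeing solution, against 700.3, 793 and 614 in INS A, B and C. ONS B lies within the INS range, and the log2 fold change was 0.45 (standard error 0.24, limma adjusted p = 0.344 in the wider fit), or 0.25 without ONS C. The chloroplast forms LEMGIv51_A5_002255_1, with means of 3144 under ONS and 2661 under INS, and LEMGIv51_A5_020787_1, with 1202 under ONS and 1308 under INS, had log2 ratios of 0.24 and −0.12. LEMGIv51_A5_020786_1 and LEMGIv51_A5_020787_1 have consecutive numbers, and how reads that fit both were counted is not given in the sources used here. The sum of the 4 means was 5594 under ONS and 4878 under INS, or 1.15-fold higher under ONS.

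The peroxisomal transaminases, which turn glyoxylate into glycine in photorespiration, had log2 ratios of 0.07 to 0.32. This was the narrowest range of a role, but also the role with the fewest genes (3), all with condition means only. Glycine transaminase (LEMGIv51_A5_009425_1), annotated as a glutamate-glyoxylate aminotransferase, had a mean of 41003 under ONS and 39123 under INS, a log2 ratio of 0.07. The serine-pyruvate transaminases LEMGIv51_A5_008595_1 and LEMGIv51_A5_008596_1, annotated as serine-glyoxylate aminotransferases, had log2 ratios of 0.32 and 0.26. Their means were 2782 and 2962 under ONS, against 2226 and 2472 under INS, and with consecutive numbers they may share reads.

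Among the transaminases of amino acid synthesis, 6 of 9 genes had a ratio above 1, against 53.6% of all genes with a mean of at least 10. The median log2 ratio was 0.33, and the group held both the highest and some of the lowest ratios. LL-diaminopimelate aminotransferase forms a late intermediate of lysine synthesis in plants. The gene annotated as the chloroplast enzyme, LEMGIv51_A5_010726_1, had a mean of 1429 under ONS, against 330, 688 and 1015 normalized reads in INS A, B and C (mean 678). The ratio of the means was 2.11, a log2 ratio reached by 0.717% of genes with a mean of at least 1000. Whether the libraries of the conditions overlap is not known. The INS libraries themselves differed by 3.08-fold, a range that 3.53% of 7616 genes with INS means of 100 to 1000 reached, while the median range was 1.49-fold. No reads could be recovered under ONS, so this ratio has no test.

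The other gene under that enzyme name, LEMGIv51_A5_013097_1, is annotated as ALD1, which in Arabidopsis acts on lysine in the synthesis of the defense compound pipecolic acid. It had 49.4, 49.2 and 45.5 normalized reads in ONS A, B and C, against 117, 96.6 and 62.7 in INS A, B and C. All ONS libraries lie below all INS libraries, as they do for 14.4% of all genes tested. The log2 fold change was −0.88 (standard error 0.33, 95% confidence interval −1.60 to −0.16) and did not pass limma after adjustment (adjusted p = 0.167, over the alternatives 0.1 to 0.370). The libraries rest on 97, 43 and 36 reads under ONS and 162, 119 and 28 under INS. The ratios of the genes under this name thus pointed in opposite directions, and since one of them has no reads under ONS, the difference between them was not tested.

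Branched-chain transaminase, which forms leucine, isoleucine and valine from their keto acids, also had genes with opposite ratios. LEMGIv51_A5_010034_1 had 819, 864 and 630.1 normalized reads in ONS A, B and C, from an agreeing solution, against a mean of 1456 under INS. The INS libraries are not known, so whether the conditions overlap cannot be told, and the log2 ratio of the means was −0.92. As low a ratio was found for 5.84% of genes with a mean of at least 1000. LEMGIv51_A5_009748_1 had a mean of 1437 under ONS and 1023 under INS (log2 ratio 0.49). The summed mean of both was 2208 under ONS and 2479 under INS, or 0.891 times the INS value.

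Phosphoserine transaminase, for serine synthesis from a glycolytic intermediate, had 2 genes with a higher mean under ONS. LEMGIv51_A5_013392_1 had 756, 687 and 946 normalized reads in ONS A, B and C, from an agreeing solution, against 612, 597 and 697 in INS A, B and C. ONS B lies within the INS range, and the log2 fold change was 0.32 (standard error 0.20, limma adjusted p = 0.433 in the wider fit), or 0.19 without ONS C. LEMGIv51_A5_013389_1 had few reads, namely 32, 14 and 7 in ONS A, B and C, against 7, 5 and 1 in INS A, B and C. After normalization these were 16.3, 16.0 and 8.84 under ONS, against 5.05, 4.06 and 2.24 under INS. All ONS libraries lie above all INS libraries, as they do for 11.5% of the genes tested, which all have a mean of at least 10. The ratio of the means was 3.63, but the mean of 8.75 over all libraries is below the limit of 10 for the test. Without that limit, the log2 fold change was 1.62 (standard error 0.55, limma adjusted p = 0.130).

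Acetylornithine transaminase (LEMGIv51_A5_007456_1), on the path from glutamate to arginine, had 778, 670 and 833 normalized reads in ONS A, B and C, from an agreeing solution, against 539, 531 and 623 in INS A, B and C. All ONS libraries lie above all INS libraries, as they do for 11.5% of the genes in the wider fit. Most of those genes had single solutions. The ONS reads of this gene were kept because their libraries agree, which can favour such a separation. The log2 fold change was 0.43 (standard error 0.19, limma adjusted p = 0.275 in the wider fit, 0.277 to 0.537 without each library). The aspartate-prephenate aminotransferase LEMGIv51_A5_014868_1, which acts before phenylalanine and tyrosine, had 982, 996 and 683 normalized reads in ONS A, B and C, from an agreeing solution, against 1030, 855 and 591 in INS A, B and C. Library C is the lowest under both conditions, and the log2 fold change was 0.12 (standard error 0.25, limma adjusted p = 0.833 in the wider fit). Histidinol-phosphate transaminase (LEMGIv51_A5_008537_1), of histidine synthesis, had a mean of 2700 under ONS and 2949 under INS (log2 ratio −0.13).

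**Figure D3:**
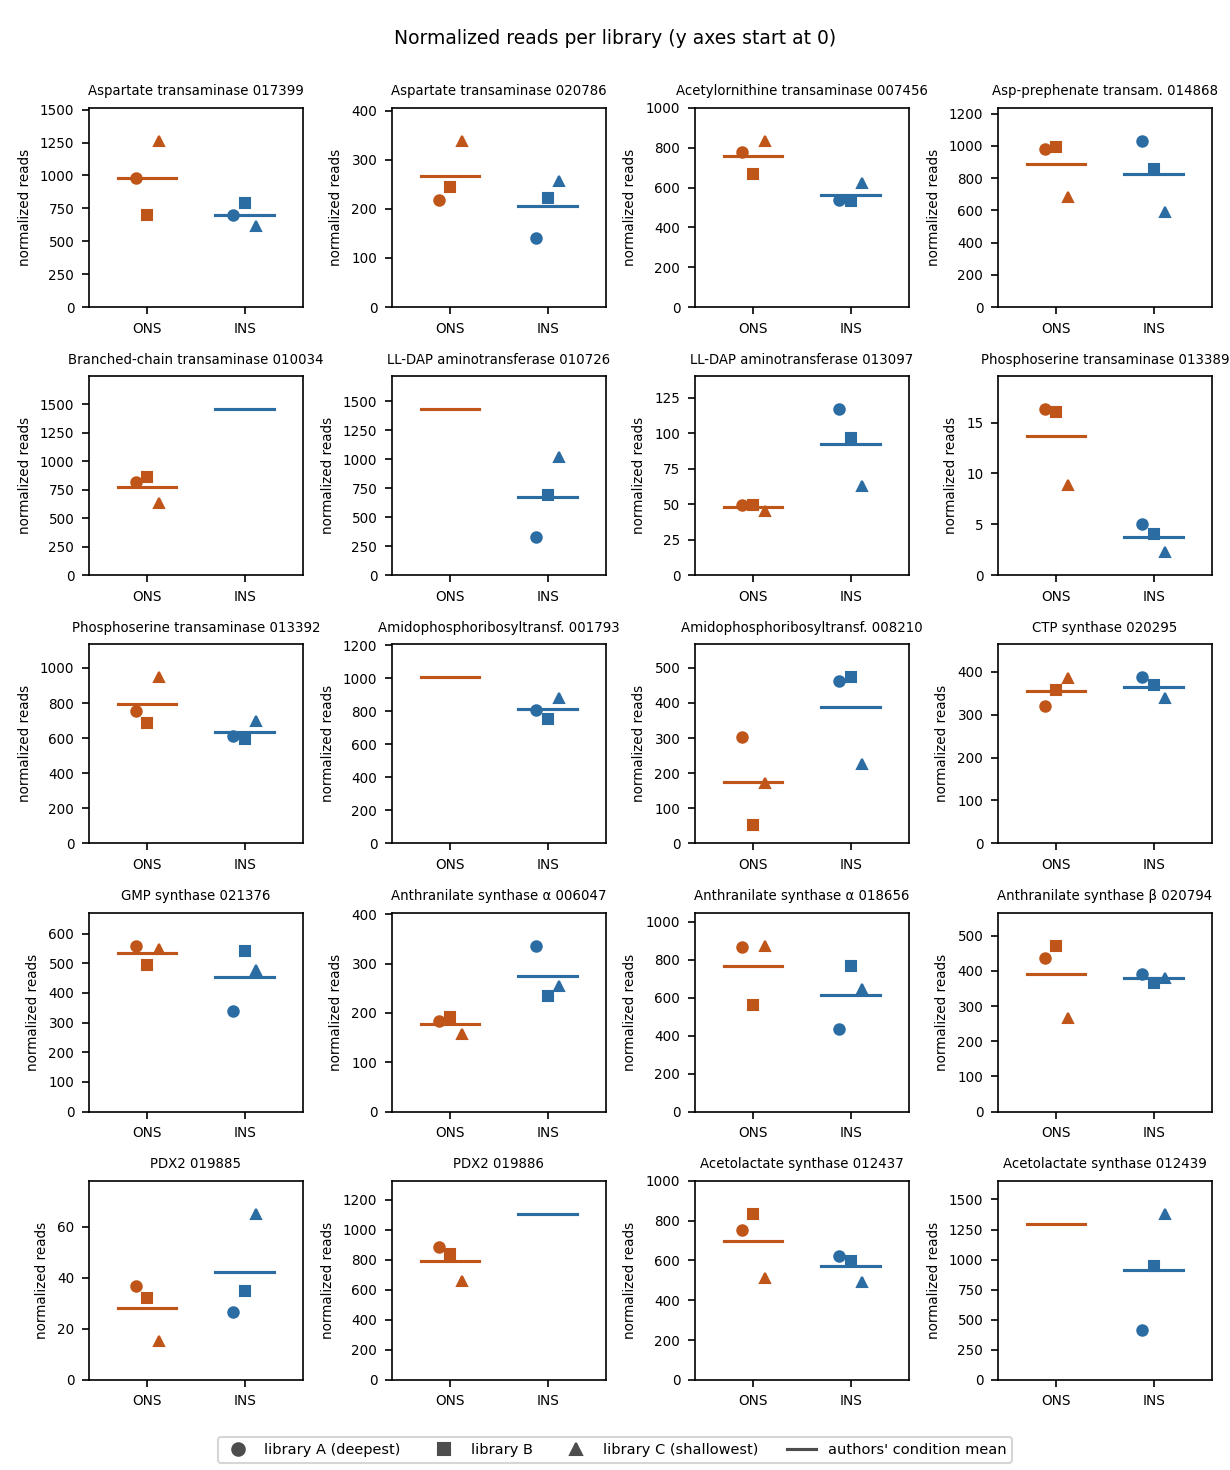
Normalized reads per library (y axis, from 0) are plotted for the 20 members with reads in at least 1 condition, ONS left and INS right, with circles, squares and triangles for libraries A, B and C and a line for the authors' condition mean. A condition with a line alone has no reads per library. ONS and INS points do not overlap for the ALD1-annotated gene (45.5 to 49.4 under ONS and 62.7 to 117 under INS), for an anthranilate synthase gene, and, on the other side, for acetylornithine transaminase and the phosphoserine transaminase with few reads. Among all genes tested, the libraries lie wholly lower under ONS for 14.4% and wholly higher for 11.5%.

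Amidotransferases of nucleotide synthesis had 6 of 8 genes with a ratio above 1 (median log2 ratio 0.31), against 53.6% of all genes with a mean of at least 10. They held 3 of the 7 members with a mean of at least 1000 that was 1.5-fold or more higher under ONS. Of all genes with a mean of at least 1000, 6.34% were that much higher. The chains of carbamoyl-phosphate synthase, which makes carbamoyl phosphate from the amide group of Gln for pyrimidines and arginine, both had a higher mean under ONS. The large chain (LEMGIv51_A5_012593_1) had a mean of 2476 under ONS and 1205 under INS, and the small chain (LEMGIv51_A5_002029_1) one of 3602 under ONS and 2224 under INS. Their log2 ratios were 1.04 and 0.70, which 0.910% and 3.83% of genes with a mean of at least 1000 reached. Phosphoribosylformylglycinamidine synthase (LEMGIv51_A5_012547_1), which uses Gln in the fourth step of the purine ring, had a mean of 6242 under ONS and 3120 under INS (log2 ratio 1.00). As high a ratio was found for 1.13% of genes with a mean of at least 1000. At these levels the means could not be separated into reads, and the spread between libraries is not known.

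The first enzyme of purine synthesis, amidophosphoribosyltransferase, had genes on both sides. LEMGIv51_A5_008210_1 had 302, 53.8 and 172 normalized reads in ONS A, B and C, against 464, 472 and 226 in INS A, B and C. ONS A lies above INS C, so the groups overlap, and the ONS libraries differed by 5.62-fold, a range reached by 0.507% of 7700 genes with ONS means of 100 to 1000. The log2 fold change was −1.37 (standard error 0.54, 95% confidence interval −2.55 to −0.19), with an adjusted p of 0.189 in limma (0.0668 to 0.472 over the alternatives). Without ONS B it was −0.69, and without ONS A −1.92. LEMGIv51_A5_001793_1 had a mean of 1005 under ONS, without reads per library, against 809, 754 and 883 normalized reads in INS A, B and C (log2 ratio 0.30). The means of both genes added up to 1181 under ONS and 1203 under INS, or 0.982 times the INS value.

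CTP synthase and GMP synthase, which add the amide group in the last steps to these nucleotides, had log2 values between −0.04 and 0.31. The CTP synthase LEMGIv51_A5_020295_1 had 320, 357 and 385 normalized reads in ONS A, B and C, against 387, 369 and 338 in INS A, B and C. The log2 fold change was −0.04 (standard error 0.21, 95% confidence interval −0.50 to 0.42, limma adjusted p = 0.936), and its sign changed with quantile normalization (0.01). The other gene, LEMGIv51_A5_013912_1, had a mean of 1727 under ONS and 1389 under INS (log2 ratio 0.31). GMP synthase (LEMGIv51_A5_021376_1), for which the study's transcript annotation gives another name, an elicitor-responsive protein, had 559, 494 and 548 normalized reads in ONS A, B and C, against 340, 539.8 and 477 in INS A, B and C. INS A is the lowest library, and the log2 fold change was 0.26 (standard error 0.23, 95% confidence interval −0.23 to 0.76, limma adjusted p = 0.559). Without INS A it was 0.07.

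The amide-transferring enzymes of vitamin B6 and tryptophan synthesis were the role with the lowest median log2 ratio, −0.22, with 3 of 6 genes on each side. Vitamin B6 is the cofactor of all transaminases and is made by PDX1, which builds the ring, with PDX2, the glutaminase that supplies ammonia to it. PDX1 (LEMGIv51_A5_003343_1) had a mean of 1755 under ONS and 1124 under INS (log2 ratio 0.64), a ratio reached by 4.96% of genes with a mean of at least 1000. Both PDX2 genes had a lower mean under ONS. LEMGIv51_A5_019886_1 had 883, 838 and 662 normalized reads in ONS A, B and C, from an agreeing solution. Its mean under INS was 1106, without reads per library (log2 ratio −0.48). LEMGIv51_A5_019885_1 had 36.7, 32.0 and 15.2 normalized reads in ONS A, B and C, against 26.7, 34.9 and 65.0 in INS A, B and C. These overlap widely, and the log2 fold change was −0.57 (standard error 0.47, 95% confidence interval −1.60 to 0.47, limma adjusted p = 0.543). It was −0.19 without ONS C and −0.21 without INS C. The PDX2 genes have consecutive numbers and may share reads.

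Anthranilate synthase, which takes the amide group of Gln into the first compound of tryptophan synthesis, had alpha subunit genes with opposite directions. The gene annotated as alpha subunit 1, LEMGIv51_A5_006047_1, had 184, 192 and 157 normalized reads in ONS A, B and C, against 336, 234 and 255 in INS A, B and C. All ONS libraries lie below all INS libraries, as they do for 14.4% of all genes tested. The limma log2 fold change was −0.62 (standard error 0.25, 95% confidence interval −1.16 to −0.07), which did not pass after adjustment (adjusted p = 0.200, over the alternatives 0.193 to 0.462). The gene annotated as alpha subunit 2, LEMGIv51_A5_018656_1, had 867, 561 and 874 normalized reads in ONS A, B and C, from an agreeing solution, against 435, 766 and 647 in INS A, B and C. Its groups overlap, and the log2 fold change was 0.33 (standard error 0.26, limma adjusted p = 0.551 in the wider fit), or 0.09 without INS A. The beta subunit (LEMGIv51_A5_020794_1), the glutaminase, had 436, 472 and 265 normalized reads in ONS A, B and C, against 392, 365 and 379 in INS A, B and C. Its log2 fold change was 0.00 (standard error 0.25, 95% confidence interval −0.56 to 0.56, limma adjusted p = 0.997).

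The enzymes of the first and core steps of branched-chain, aromatic and lysine synthesis had 8 of 10 genes with a ratio above 1 (median log2 ratio 0.30). Of all genes with a mean of at least 10, 53.6% had such a ratio. In the branched-chain path, acetolactate synthase catalyzes the first shared step, followed by ketol-acid reductoisomerase and dihydroxy-acid dehydratase. The acetolactate synthase gene LEMGIv51_A5_015271_1, annotated as the catalytic subunit, had a mean of 5220 under ONS and 3618 under INS (log2 ratio 0.53). Dihydroxy-acid dehydratase (LEMGIv51_A5_015196_1) had one of 2801 under ONS and 1772 under INS (log2 ratio 0.66), reached by 4.58% of genes with a mean of at least 1000. Ketol-acid reductoisomerase (LEMGIv51_A5_016077_1) had a mean of 18932 under ONS and 16762 under INS (log2 ratio 0.18). The unnamed gene LEMGIv51_A5_016215_1, assigned to isoleucine synthesis, had a mean of 2750 under ONS and 1373 under INS (log2 ratio 1.00). 2-Isopropylmalate synthase (LEMGIv51_A5_006288_1), which commits carbon to leucine, had a mean of 6608 under ONS and 6414 under INS (log2 ratio 0.04).

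The small subunits of acetolactate synthase, which regulate the enzyme, were measured in part per library. LEMGIv51_A5_012437_1 had 753, 834 and 510.1 normalized reads in ONS A, B and C, against 622, 598 and 493 in INS A, B and C. Library C is the lowest under both conditions, and the log2 fold change was 0.27 (standard error 0.23, 95% confidence interval −0.24 to 0.77, limma adjusted p = 0.559), and 0.13 without ONS B to 0.48 without ONS C. LEMGIv51_A5_012439_1 had a mean of 1295 under ONS, against 416, 951 and 1380 normalized reads in INS A, B and C, from an agreeing solution (log2 ratio 0.50). The INS libraries differed by 3.32-fold, and the ONS mean lies within their range. As for LEMGIv51_A5_010726_1, INS A was the lowest and INS C the highest. Over the 18 members with INS reads, INS A was the lowest for 6 and INS C for 7. Of the 11033 genes in the wider fit, INS A was the lowest INS library for 43.2% and INS C for 33.9%.

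Of the genes for the first step of aromatic synthesis, 3-deoxy-7-phosphoheptulonate synthase (DAHP synthase), 1 had a lower and 1 a higher mean under ONS. LEMGIv51_A5_001314_1 had a mean of 1460 under ONS and 2309 under INS (log2 ratio −0.66), as low as 9.46% of genes with a mean of at least 1000. LEMGIv51_A5_011450_1 had a mean of 4849 under ONS and 3897 under INS (log2 ratio 0.32). Their sums, 6309 under ONS and 6206 under INS, gave a log2 ratio of 0.02. The 4-hydroxy-tetrahydrodipicolinate synthase LEMGIv51_A5_018917_1, for the first step towards lysine, had a mean of 1337 under ONS and 1618 under INS (log2 ratio −0.28).

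Several enzyme names cover more than 1 gene. Of 12 enzyme names with more than 1 gene in the table, 7 had genes with a higher and genes with a lower mean under ONS, and 5 had all genes on one side. Of all genes with a mean of at least 10, 53.6% had a ratio above 1. How often genes under other enzyme names lie on both sides was not tested, so this count cannot be called particular to these enzymes. The CTP synthase genes, among the 7 names, had log2 ratios of only −0.04 and 0.31. The log2 ratios of genes under 1 name were 2.01 apart for LL-diaminopimelate aminotransferase, but its genes are annotated as different enzymes, the chloroplast enzyme and ALD1. The distance was 1.44 for amidophosphoribosyltransferase, 1.41 for branched-chain transaminase, 0.98 for DAHP synthase and 0.95 for the anthranilate synthase alpha subunit. The carbamoyl-phosphate synthase genes, which lie on the ONS side together, are different subunits. The acetolactate synthase genes, also together on that side, are a catalytic subunit and the small subunits 1 and 2. Within a library, the ratio of 2 genes does not depend on the size factor, and it could be compared for 2 pairs, both with agreeing solutions. The log2 ratio of anthranilate synthase alpha subunit 1 to 2 was −2.08 ± 0.48 under ONS and −1.14 ± 0.69 under INS (SD, n = 3 each), a difference of −0.94 (exact permutation test, two-sided, p = 0.2, adjusted over both pairs p = 0.4). That of the aspartate transaminases LEMGIv51_A5_017399_1 and LEMGIv51_A5_020786_1 was 1.86 ± 0.33 under ONS and 1.80 ± 0.53 under INS, a difference of 0.06 (exact permutation test, two-sided, p = 0.9). With 3 libraries a condition, the smallest p this test can give is 0.1.

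**Figure D4:**
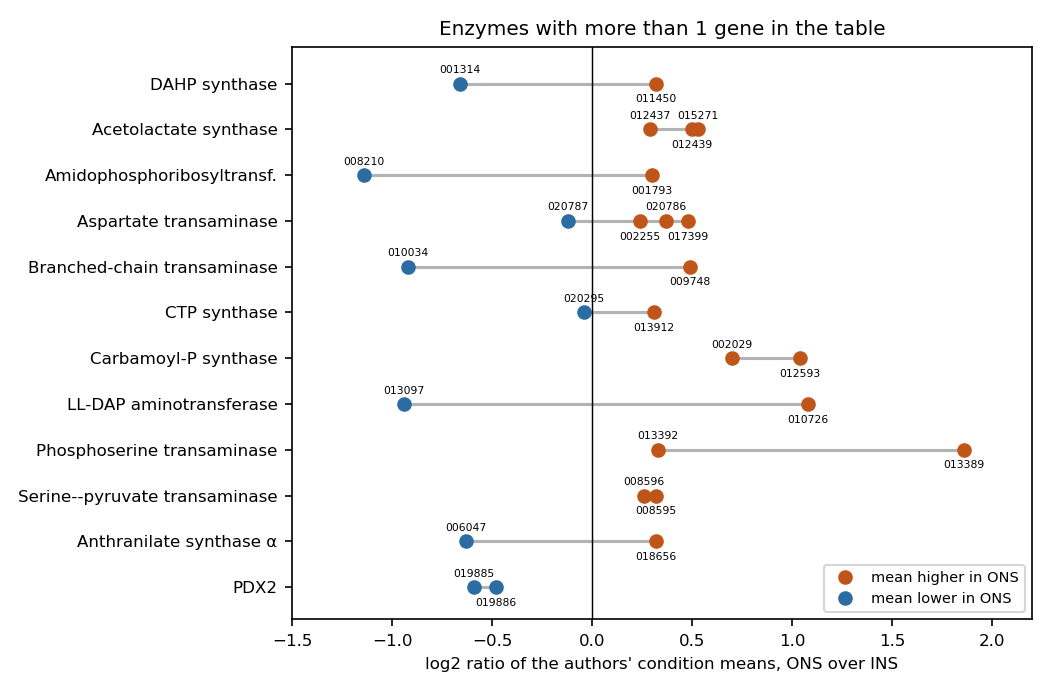
For the 12 enzyme names with more than 1 gene, each gene is a point at its log2 ratio of the authors' condition means (ONS over INS, x axis), labelled by the number in its gene ID and joined by a line. The longest line is that of LL-diaminopimelate aminotransferase, from −0.94 to 1.08. It joins the ALD1-annotated gene to the gene annotated as the chloroplast enzyme.

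The genes left out by name and the other genes of serine, glycine and glutamate reactions show how neighbouring steps compared. Of these 32 genes, 30 have a row in the authors' table, 17 with a higher and 13 with a lower mean under ONS (median log2 ratio 0.07). Of the 7 with single solutions and a mean of at least 10, 3 were lower under ONS at an adjusted p of at most 0.05 and 0 were higher (limma), all 3 of them asparagine synthetase genes. Among all genes tested, 5.51% were lower and 0.942% higher. In the wider fit, 2 of 10 were lower and 0 higher, against 4.77% and 0.888% of all its genes. The asparagine synthetase gene LEMGIv51_A5_015127_1 had a limma adjusted p of 0.0441 with single solutions and 0.0531 in the wider fit. The others called, LEMGIv51_A5_015128_1 and LEMGIv51_A5_015129_1, had means of 54.57 and 52.57 under ONS and 390.4 and 380.5 under INS. These 3 genes have consecutive numbers and may share reads, so their calls may not be separate.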

How the data were processed

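PolyA RNA of *L. gibba* fronds was sequenced by the authors (101 bp paired-end reads, 3 libraries each for ONS and INS), mapped with Bowtie to predicted transcripts of draft genome v0.5.1 and normalized with DESeq (no versions given). The deposited table holds, per gene, the mean signal (read counts divided by size factors) over all libraries and per condition, and the authors' fold change, p-values and calls, which were not used. Columns of single samples left unused numbered 0. Conditions come from the sample titles, and enzyme names and reactions from the study's gene list. Members and lists were chosen with earlier results of these data known.

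Condition means are weighted sums of whole reads. Weights were estimated by least squares, and all solutions within the printed rounding were searched for means under 1000. This gave 11070 genes (67.7%), of which 9979 had a mean of at least 10. Where several solutions existed, the only one whose SD of log2 values was within the 99th percentile of genes with means of 100 to 300 was added in a wider fit (11033 genes with a mean of at least 10). The test was limma 3.58.1, run in R 4.3.3 on the log2 of normalized reads plus a pseudocount of 1, a scale that understates changes of low genes, with a mean-variance trend and Benjamini-Hochberg adjustment over all genes tested. No count model was fitted, because many genes have no recovered reads. Full statistics are given for members past an adjusted p of 0.05 and for all isoform pairs with recovered reads. They are also given for the 3 largest changes in each direction among tested members with a mean of at least 50. The scripts were tested on simulated data. Exact tests used scipy 1.17.1. Depth is that of reads on transcripts, and no error is given where reads were not recovered. Alternatives covered thresholds, pseudocounts of 0.5 and 10, filters, scaling, the variance model and leaving out each library.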

Additional observations from a re-analysis of the deposited data

How the results depend on the processing

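The count of members past the adjusted p was 0 in all 23 alternatives, with thresholds of 0.01 and 0.1, pseudocounts of 0.5 and 10, no filter or a mean of at least 50, median ratio scaling, quantile normalization, other variance models, each library left out, and the wider set of genes, which was chosen after seeing the data. The smallest adjusted p of any member over these was 0.0668, for LEMGIv51_A5_008210_1 without ONS A. The count of members was also 0 with more than 2-fold or with no fold limit, but a fold limit can only lower it. Signs of small differences were not stable. The log2 fold change of LEMGIv51_A5_020295_1 was 0.01 with quantile normalization and −0.11 to 0.03 with each library left out, that of LEMGIv51_A5_020794_1 was −0.15 to 0.26 (−0.02 without INS B), and that of LEMGIv51_A5_014868_1 −0.10 to 0.30, also without each library. The difference of the aspartate transaminase pair was −0.21 to 0.32 and that of the anthranilate synthase pair −1.23 to −0.56 without each library. Over all genes, 39 to 90 higher and 294 to 473 lower genes passed the adjusted p without each library, against 94 and 550 with all. In the wider fit the counts without each library were 32 to 88 and 260 to 442, against 98 and 526. More than 4-fold and past the adjusted p were 284 genes, or 169 with a pseudocount of 10. Minus the median of all genes (0.04), or with 10 added to both means, no condition mean ratio changed sign, but those of LEMGIv51_A5_012547_1 and LEMGIv51_A5_016215_1 no longer exceeded 2-fold under either, and that of LEMGIv51_A5_012593_1 did not after centring. With 10 added, that of LEMGIv51_A5_013389_1 was 0.78. No paired analysis was possible because the recovered libraries could not be matched to replicate numbers.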
